A study of Drosophila melanogaster with 6 samples.

Results

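Most Drosophila genes that have been studied carry a name that recalls a mutant or a protein family, whereas a gene known only from the annotation of the genome keeps a CG number. Genes of the second kind that were much more abundant in affinity-isolated nuclei, mostly of photoreceptors, than in the head homogenate they came from are described here. A member had to have a symbol made of CG and digits only, a level of at least 2 CPM in each of the 3 post-isolation samples, and a mean post-isolation CPM at least 4 times the mean pre-isolation CPM. CPM was the count of a gene divided by the summed counts of all genes in that sample, times 1000000. This left 82 members, which were 3.28% of the 2501 CG genes that passed the CPM minimum, out of 6009 CG genes in the count table and 17558 genes in all. Of all genes tested for a change, 3.08% had a ratio of 4 or more. The members were thus chosen by their measured levels and by the ratio of post-isolation to pre-isolation CPM, so their levels and fold changes are given as a description, and no test on that contrast is offered as support.

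All 6 samples came from adult males aged 10 days after eclosion, which shared a single genotype with w and ry[506] in the background and a pair of transgenes, UAS-GFP-Msp300KASH in attP2 and rh1-GAL4. In these flies the Rh1 (ninaE) promoter drives Gal4 in the outer photoreceptors R1 to R6. Gal4 in turn drives GFP fused to the KASH domain of Msp300, which places GFP on the nuclear envelope. The study also found Rh1 and GFP transcripts in the antennae. It proposed that mechanosensory neurons there most likely contributed a minority of the isolated nuclei. The 3 pre-isolation samples were head homogenates, listed as total RNA, and the 3 post-isolation samples were nuclear RNA from nuclei captured with a GFP antibody, 1 of each from every paired biological replicate. Each sample pooled many males, both groups carried the transgenes, and there was no mock isolation among the samples, so that a change of cell type and a change from whole homogenate to nuclei cannot be told apart in the comparison.

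Insect photoreceptors detect light with rhodopsin packed into a stack of microvilli, the rhabdomere, and convert it into a current through a phospholipase C cascade that opens the TRP and TRPL channels. Many genes of this cascade are long and have large introns, and fly introns often hold further, smaller genes. A read from a spliced mRNA falls only in exons, but a nuclear RNA library also holds unspliced transcripts, so that reads can fall in introns and in whatever gene lies there. Reads were assigned to genes by strand, so a gene inside an intron and its host on the same strand share a direction, and a gene on the other strand does not.

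The libraries held between 9999540 and 14522962 counts assigned to genes. The share of reads that fell in no annotated exon on the counted strand was 44.8 to 45.5% before isolation and 48.8 to 52.4% after it. Such reads can lie in introns, opposite to a gene or between genes. Of 16 photoreceptor marker genes, 14 were post-enriched, all but ninaE and Arr2, with a median log2 fold change of 2.18. Their summed level was 64983 to 67065 CPM before isolation and 128143 to 156278 CPM after it. Markers of glia, fat body and brain neurons had medians of -0.82, -1.35 and -0.90, and mitochondrial-encoded transcripts fell by a median of 2.65 on the log2 scale. Rh3, Rh4, Rh5 and Rh6, the rhodopsins of the inner photoreceptors R7 and R8, were also post-enriched. On the same list of 6 genes pros, a transcription factor gene of R7 cells and of many brain neurons, had a log2 fold change of -1.17 ± 0.17, with 3832 to 4061 CPM before and 960 to 1851 CPM after isolation, and sens of 1.20 ± 0.70. Markers of antennal mechanosensory neurons had a median of 0.67, and none was post-enriched. The study ascribed the rhodopsins of inner photoreceptors to expression of rh1-GAL4 in the antennae, which was not tested here. Markers of cone and pigment cells and of muscle had medians of -0.26 and 0.50. On these lists w and Tm1 were post-enriched, with log2 fold changes of 3.60 and 1.80. The study writes the UAS-GFP-Msp300KASH insertion with the marker w+mC, so reads of w may come from that transgene, which was not tested. Among the brain neuron markers elav and nSyb were at 0.64 and 0.30, and the other matched genes were below 0. Markers of the labelled cell type were thus higher after isolation, and so were rhodopsin transcripts of inner photoreceptors. On the cone and pigment cell and muscle lists only w, with the limit given above, and Tm1 were post-enriched.

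Together the 82 members made up 0.112, 0.117 and 0.115% of gene counts in the pre-isolation samples of replicates 1, 2 and 3. After isolation the share was 0.677, 0.749 and 0.537%. Median levels over the members were 2.25 CPM before and 16.4 CPM after isolation, and mean post-isolation levels ran from 2.42 to 1134 CPM. Over the 81 members with any pre-isolation read, the median ratio of the means was 6.19, 21 reached 10-fold, 7 reached 20-fold and 30 lay under 5-fold. The remaining member, CG44102, had no pre-isolation read and is described with a lower bound. Because the ratio defined membership, these figures describe how far the set extended past its own threshold.

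On the log2 scale of the edgeR fit, the median of the members was 3.07, against -0.07 for all 10378 genes tested. That fit scaled the libraries by TMM factors. With library size alone the median of all genes moved to -0.51 and that of the members to 2.62. All 82 members passed the test for a change above 2-fold (edgeR glmTreat, false discovery rate of 0.05), a call made for 7.29% of all genes tested, 7.05% of the CG genes tested and 8.56% of the CG genes past the CPM minimum. All 82 also had each post-isolation CPM above each pre-isolation CPM, an arrangement found for 18.4% of the CG genes past the minimum and for 16.4% of all genes tested. Both counts rest on the same contrast as the rule and are read no further. Under DESeq2 with the same 2-fold threshold, 69 members were called, as were 5.57% of all genes tested. The 13 members that were not called all had a mean under 10 CPM after isolation, with CG16749, CG18180 and CG9777 among them.

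**Figure D1:**
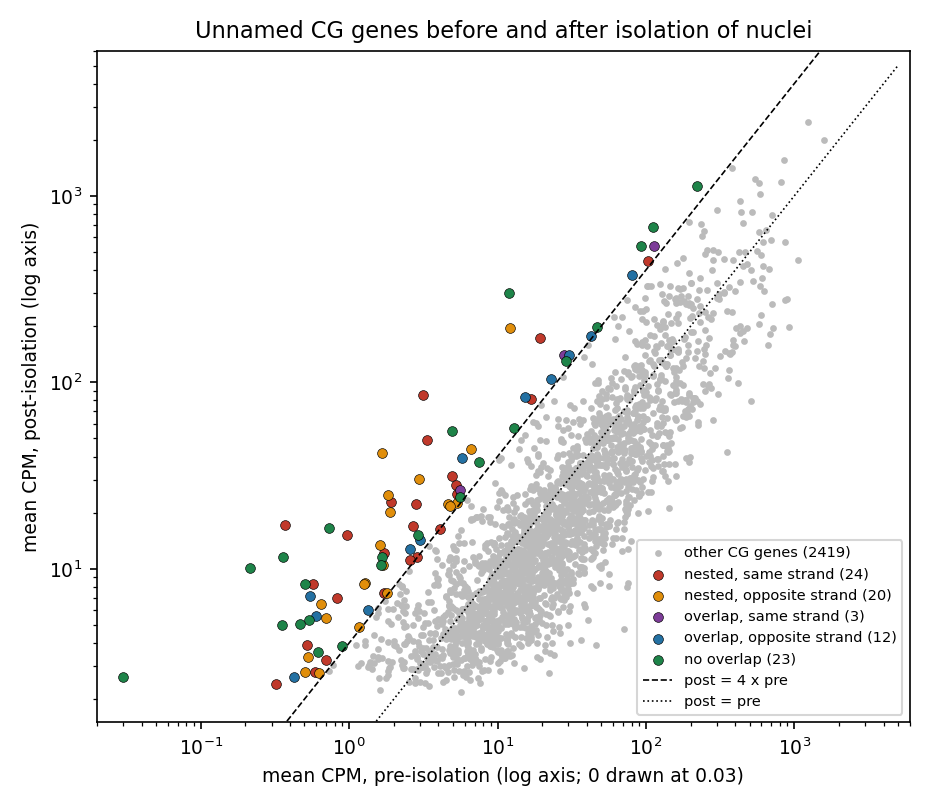
Mean CPM before isolation (x axis, log scale) against mean CPM after isolation (y axis, log scale) for 2501 CG genes. Coloured points are the 82 members by their position relative to other genes, grey points the remaining CG genes, the dashed line marks 4-fold and the dotted line equality, and the members spread along the dashed line over the whole range of expression.

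At the threshold itself the values ran on without a gap. The members nearest to it were CG5810 at 4.01-fold, CG32295 at 4.04-fold and CG13931 at 4.12-fold. Just outside lay CG11893 and CG4660, both at 3.93-fold, and CG33293 at 3.91-fold. Of these, CG4660 was well expressed, with a mean of 40.5 CPM before and 159 CPM after isolation.

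The member with the most reads was CG31038, on chromosome 3R at 29877059 to 29903231 of the BDGP6 (dm6) assembly, a gene of 5 exon blocks that overlaps no other gene. CG31038 stood at 223, 225 and 212 CPM in the pre-isolation samples and at 1108, 1338 and 955 CPM in the post-isolation samples. The groups were far apart, and replicate 3 was the lowest of the post-isolation samples. Its log2 fold change was 2.82 ± 0.16 (SE of the fit, n = 3 per group). The ratio of its mean CPM, without the TMM factors of the fit, was 5.15, and ratios of means given for other members are likewise without these factors. The next member along the chromosome, CG15517, lies 8 bp from CG31038 on the other strand, and CG31036 follows 4875 bp from CG31038. CG31036 is in turn 1628 bp from trp, which encodes the main light-activated channel, on the opposite strand from trp.

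CG31036 was measured at 49.9, 45.0 and 44.9 CPM before and at 213, 199 and 179 CPM after isolation, a 4.23-fold ratio. The intervening CG15517 had far fewer reads, with 1.51, 0.092 and 0 CPM before and 3.79, 5.75 and 6.50 CPM after isolation. Here replicate 3 was the highest of the post-isolation samples, unlike in its neighbours. For trp the means were 3616 CPM before and 18875 CPM after isolation. A stretch of chromosome 3R thus held 3 members and a phototransduction gene, all higher after isolation, with ratios that differed. Other genes of the stretch were not called. Of 6 genes without overlap within 10 kb of CG31038, 2 were post-enriched, and of 6 such genes around CG31036, 3 were.

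CG15118, on 2R, and CG4168, on 2L, were the second and the fourth by level and also overlap no other gene. CG15118 rose from 104, 115 and 117 CPM to 657, 843 and 548 CPM, a log2 fold change of 3.07 ± 0.18. CG4168, whose protein has 1330 residues, went from 79.6, 98.1 and 101 CPM to 578, 569 and 465 CPM, with a log2 fold change of 2.99 ± 0.16. In both genes the groups were far apart, and replicate 3 was the lowest after isolation. A noncoding gene 1755 bp from CG4168 on the same strand, lncRNA:CR44771, had no count before isolation and a mean of 3.47 CPM after it.

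CG33203 and CG2246, the third and the sixth by level, each overlap a gene with much lower expression per kilobase. CG33203 spans several genes. Among them, Nepl17 and Nepl20 went from means of 24.5 to 131 CPM and of 9.27 to 23.9 CPM. Nepl18 and Nepl21 went from 81.3 to 29.0 CPM and from 140 to 64.3 CPM, and Nepl19 from 16.6 to 28.6 CPM. CG33203 stood at 110, 110 and 120 CPM before and 493, 615 and 513 CPM after isolation. It lies 363 bp from Doa, which encodes a LAMMER protein kinase and was itself at means of 444 and 2172 CPM. CG2246 stood at 84.4, 81.6 and 74.9 CPM before and 334, 445 and 355 CPM after isolation. Neither gene had overlapping groups, and replicate 2 was the highest post-isolation sample in both.

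Levels of different genes are comparable only per length, and on that scale the order changed. Divided by exonic length, CG15177 led with 297 CPM per kb after isolation, ahead of CG15118 with 239, CG31038 with 181, CG43255 with 175 and CG33203 with 167 CPM per kb. In all, 7 members exceeded 100 CPM per kb, 31 were under 10 CPM per kb, and the median was 12.9 CPM per kb after isolation against 2.01 before it. CG43255, with a mean of 85.6 CPM after isolation, has a single exon of 490 bases.

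**Figure D2:**
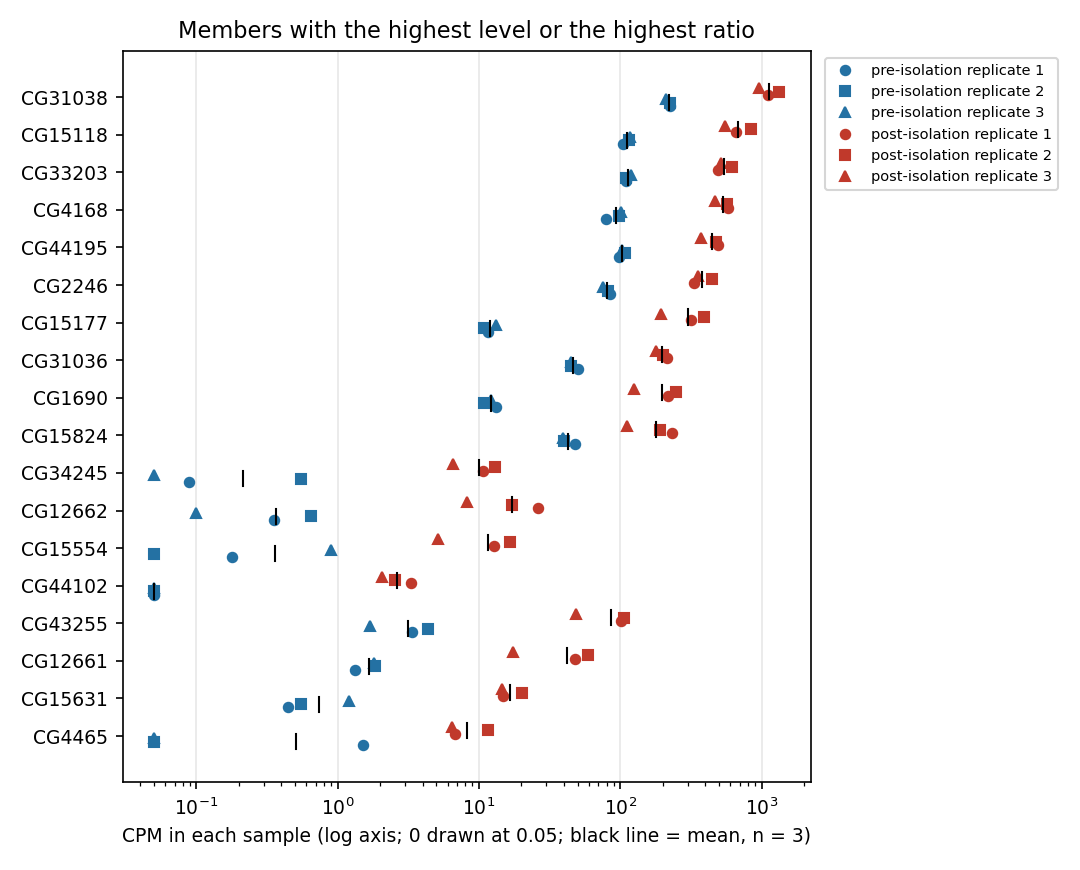
CPM of each sample (x axis, log scale) for the 10 members with the highest mean post-isolation level, listed first, and those with the highest ratio of the means, listed last. Blue symbols are pre-isolation and red symbols post-isolation samples, shapes mark replicates 1 to 3, black lines are means of 3, zeros are drawn at 0.05, and no red point lies left of a blue point of its own gene.

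The largest ratios belonged to genes close to silent in the head homogenate. CG34245, on 3L at 14893734 to 14894416, encodes a protein of 131 residues. It was read at 0.089, 0.554 and 0 CPM before isolation, a sum of 7 reads, and at 10.7, 12.9 and 6.58 CPM after it. Its ratio of 46.9 therefore rests on very few pre-isolation reads, as its log2 fold change of 5.92 ± 0.67 shows. Within 10 kb of CG34245 lay DCX-EMAP, a microtubule-associated protein gene, at means of 13.7 and 78.9 CPM, and 2 noncoding genes that were also post-enriched.

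CG15177, on 3R at 6628204 to 6629321, combined a large ratio with a high level. Its values were 11.6, 10.9 and 13.3 CPM before isolation and 318, 389 and 195 CPM after it, a 25.2-fold ratio and a log2 fold change of 5.13 ± 0.28. Replicate 3 was again the lowest after isolation, yet every post-isolation sample was far above all pre-isolation samples. Its neighbours were similar: sowi, 303 bp away on the same strand, went from a mean of 16.1 to 396 CPM, and sunz, 829 bp away on the other strand, from 42.1 to 786 CPM. Of the members with more than 100 CPM after isolation, CG15177 had the largest ratio.

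CG15554, also on 3R, was read at 0.178, 0 and 0.900 CPM before and 12.7, 16.6 and 5.13 CPM after isolation, a 32.0-fold ratio. Near it lie Ktch, at means of 14.8 and 88.7 CPM, and Prosalpha3T, a proteasome subunit gene known for its expression in the testis, which went from 0.033 to 11.8 CPM. The list of testis and male germ line genes matched 18 genes, of which 5 had enough reads to be tested and 7 had no count in any sample. Prosalpha3T was the 1 gene of that list that was post-enriched. The summed level of the list was 17.3 to 17.9 CPM before and 24.0 to 36.1 CPM after isolation. The genes at 0 throughout were aly, nht, ProtA, ProtB, Mst84Da, Mst87F and Mst98Ca. Rbp4 was at 0 before isolation and at 0.48, 0.61 and 0.94 CPM after it. Of the other tested genes of the list, betaTub85D and fzo had log2 fold changes of 1.25 and 0.92, and mia and gdl of -0.52 and -1.01.

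CG15631, at 0.445, 0.554 and 1.20 CPM before and 14.8, 20.2 and 14.6 CPM after isolation, lies 133 bp from fipi, which encodes a neuronal immunoglobulin-domain protein. The same gene, fipi, hosts a further member on its other strand, CG42523, at means of 1.61 and 13.4 CPM. For fipi itself the means were 53.0 and 269 CPM. CG44102 was the 1 member without a single read in the pre-isolation samples. After isolation it had 48, 33 and 24 reads, or 3.31, 2.53 and 2.05 CPM, which is at least 28.1-fold higher than before isolation when the floor is set at 3 reads over the whole pre-isolation group, or 0.0936 CPM. In 10 members at least 1 pre-isolation sample held no read.

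A property of the members that the rule had not used was their position. Of the 82 members, 44 (53.7%) lay wholly within the span of another gene on either strand, compared with 11.7% of the other 2419 CG genes and 14.2% of all tested genes that could be placed on the annotation. For nesting on the strand of the host the shares were 29.3% of members, 3.76% of the other CG genes and 4.61% of all tested genes. For nesting on the opposite strand they were 29.3, 8.10 and 9.82%, and 4 members were nested on both. Members that overlapped no gene numbered 23 (28.0%), whereas 45.2% of the other CG genes overlapped none. These shares describe the annotation of the genes and no test was run on them. Nesting was not particular to the members. Among all tested genes, members included, 19.3% of 435 nested on the strand of a tested host were post-enriched. The share was 14.2% of 924 nested on the opposite strand and 6.11% of those not nested.

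The members were also smaller. Their median exonic length was 1389 bases, against 1960 in the other CG genes, with a median of 2 against 4 exon blocks and a median protein of 356 against 422 residues. Single-exon genes made up 24.4% of members and 11.7% of the other CG genes, and 13 of the 24 members nested on the strand of the host had a single exon. Chromosome 3R carried 29 members (35.4%), compared with 23.9% of the other CG genes, while X held 15, 2L and 2R 14 each, 3L 10 and chromosome 4 none. All 82 were annotated as protein coding, as were the other CG genes past the minimum.

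Genes that were themselves post-enriched lay around many of the members. A post-enriched gene without overlap was found within 10 kb of 54.9% of members and of 19.5% of the other CG genes. Counting overlapping genes as well, 67 members (81.7%) overlapped or neighboured a post-enriched gene, and 61 (74.4%) still did when other members were not counted as neighbours. Among the other CG genes those shares were 22.2 and 21.4%. The nearest gene upstream on the same strand, at any distance, had a log2 fold change above 1 for 39.0% of members and 9.18% of the other CG genes. Some of these upstream genes were members themselves. The median distance to the upstream gene was 5021 bp in members and 2372 bp in the other CG genes. It lay within 1 kb for 25.6% of members and 32.3% of the other CG genes. Only 5 members, CG5196, CG9427, CG13284, CG11052 and CG16749, overlapped no gene and had no post-enriched gene within 10 kb. Of these, CG5196 had the highest level, with 25.6, 32.4 and 28.7 CPM before and 121, 147 and 123 CPM after isolation.

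**Figure D3:**
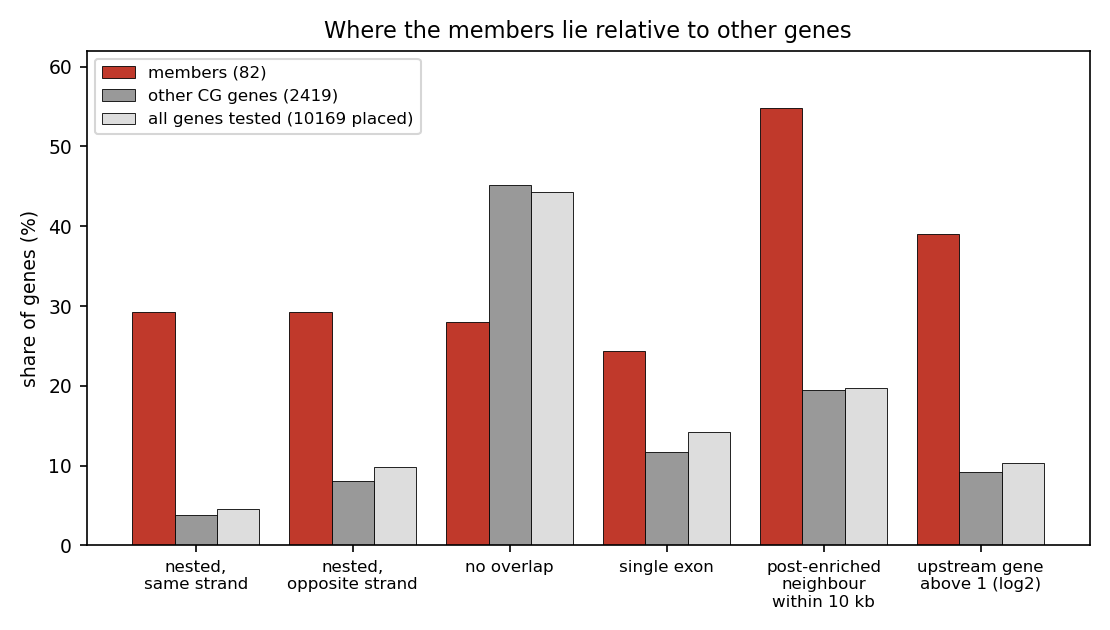
Share of genes (y axis, percent, from 0) with each position or structure, for the 82 members (red), the other 2419 CG genes past the CPM minimum (dark grey) and all tested genes that could be placed (light grey). Members are nested in another gene more often and overlap no gene less often. They lie more often near a post-enriched gene or downstream, at any distance, of a gene with a log2 fold change above 1. No test was run.

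The hosts were examined next. Of the nested members, 42 had a host that was tested. Each member contributed its host, so that a host of several members, such as rdgA or Cow, was counted repeatedly. Counted in this way, the median log2 fold change of the hosts was 1.93, compared with 0.27 over 255 other nested CG genes with a tested host. The host had a log2 fold change above 1 for 35 of the 42 members (83.3%), against 22.4% of the other nested CG genes. It was post-enriched for 32 members (76.2%), against 15.3%. These are counts of nested genes and not of distinct hosts. Hosts and members were measured in the same libraries and the same contrast, so these values are side by side and carry no test. They also cannot show which RNA a read in the shared interval came from, as no count of intron reads was used here.

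Across all tested genes, nested genes had higher fold changes where their hosts did, on both strands. Among 92 genes nested on the strand of a host with a log2 fold change above 1, the median was 2.31 and 60.9% were post-enriched. For 282 genes whose host lay between -1 and 1 the median was 0.14 and 9.93% were post-enriched, and for 61 whose host lay below -1 the median was -0.58. On the opposite strand the medians were 1.72 in 197 genes, 0.21 in 639 and -0.81 in 88, and the post-enriched shares were 44.7, 6.57 and 1.14%. Genes that were not nested, 8727 in number, had a median of -0.11 and a post-enriched share of 6.11%. The members in hosts above 1 made up 17 of those 92 and 20 of those 197 genes.

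**Figure D4:**
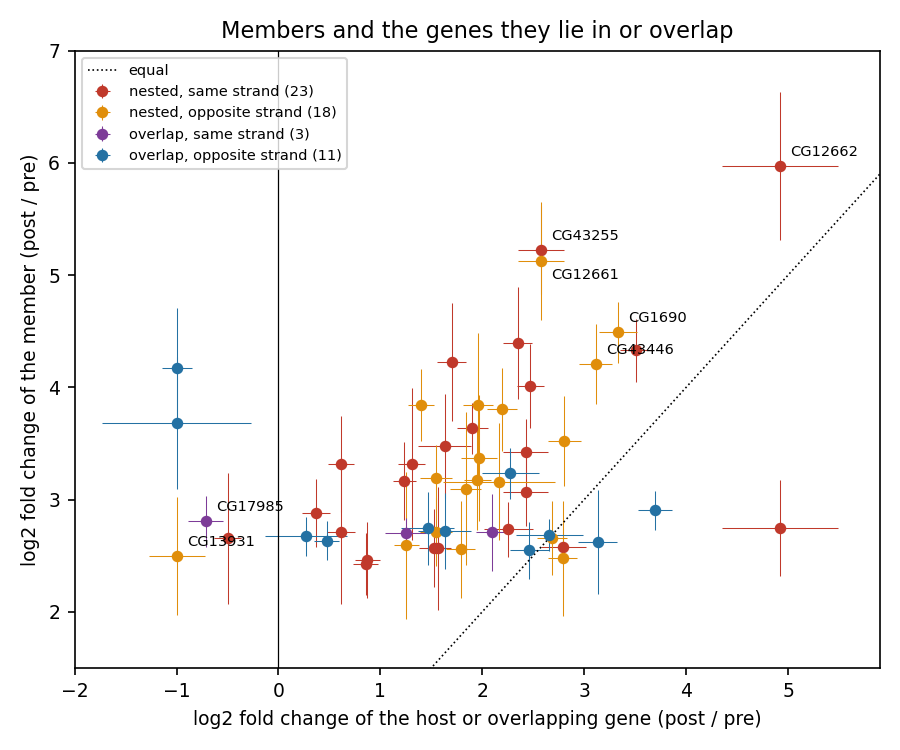
Log2 fold change (post over pre) of each member (y axis) against that of the gene it is nested in or overlaps (x axis), for the members whose partner was tested. Colours mark strand and kind of overlap, bars are standard errors of the fit, the dotted line marks equal change, and most points lie above that line and right of 0.

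The rdgA gene, which encodes the retinal diacylglycerol kinase that ends the phototransduction signal, was the host with the most members. rdgA itself went from a mean of 1036 to 4460 CPM, a log2 fold change of 2.58 ± 0.22. CG43255 lies on its strand about 17 kb into the gene, between a pair of its exons, at X 8923960 to 8924449. It was read at 3.38, 4.34 and 1.70 CPM before and 102, 107 and 48.2 CPM after isolation, a 27.3-fold ratio. Post-isolation replicate 3 was well under the others, and all 3 were far above the pre-isolation samples.

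CG12661 is 272 bp away on the opposite strand and had 1.34, 1.85 and 1.80 CPM before and 48.0, 59.6 and 17.4 CPM after isolation, a 25.1-fold ratio. Both members thus changed by far more than rdgA, with log2 fold changes of 5.22 ± 0.39 and 5.13 ± 0.53. Per kilobase of exon, CG43255 stood at 8.52% of the level of rdgA before isolation and at 53.9% after it. For CG12661 the same percentages were 2.76 and 16.1.

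Further along rdgA, on the opposite strand, lies lncRNA:CR43836, which extends past the end of rdgA and whose mean went from 1.13 to 25.1 CPM. CG12662 sits in an intron of this noncoding gene on its strand and had 0.356, 0.646 and 0.1 CPM before and 26.2, 17.3 and 8.21 CPM after isolation, a 46.8-fold ratio from 12 pre-isolation reads. CG10962 lies in the same span and one of its exons coincides with an exon of lncRNA:CR43836, so that its count leaves out reads that could not be assigned to either gene. CG10962 was at 5.16, 3.88 and 6.90 CPM before and at 33.1, 32.3 and 10.5 CPM after isolation, a ratio of 4.76. All 4 members inside rdgA had their lowest post-isolation value in replicate 3, as did rdgA, whose ratio of replicate 3 to the mean of the other replicates was 0.570.

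**Figure D5:**
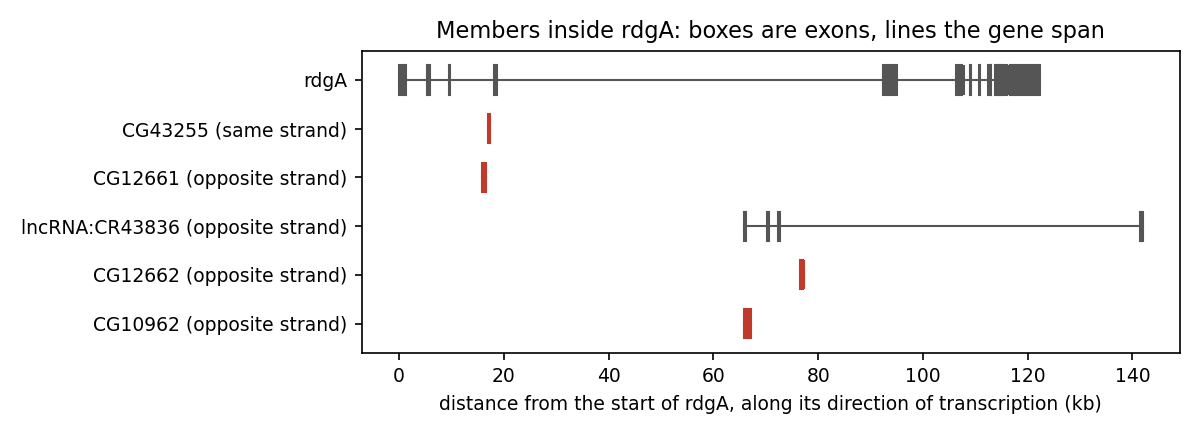
Exons (boxes) and spans (lines) of rdgA, lncRNA:CR43836 (both grey) and 4 members (red) by distance in kb from the start of rdgA, along its direction of transcription. CG43255 and CG12661 lie side by side in an early intron, and CG10962 and CG12662 lie in a long intron, within the span of the noncoding gene on their strand.

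Members also lay in or overlapped other genes of phototransduction and of the photoreceptor membrane. CG1690 lies in trpl, the second light-activated channel, on the opposite strand, and had 13.3, 10.8 and 12.2 CPM before and 216, 247 and 126 CPM after isolation. Its log2 fold change of 4.49 ± 0.27 was above that of trpl, 3.33 ± 0.19, and its level per kilobase was 1.67% of that of trpl before and 3.71% after isolation. CG43446 lies opposite to Calx, the sodium/calcium exchanger of photoreceptors, with 1.60, 2.31 and 1.60 CPM before and 26.8, 29.5 and 17.9 CPM after isolation. In both genes the groups were well apart and replicate 3 was the lowest after isolation. CG15824 spans ninaA, which encodes a cyclophilin needed for the transport of rhodopsin and lies wholly within it on the opposite strand. CG15824 went from 47.5, 40.3 and 39.4 to 233, 190 and 111 CPM.

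CG42383 is one of 6 members for which RefSeq lists a synonym that points to a protein, in this case eyc and p47, the name of a cofactor of the ATPase p97. It lies in prom, on the same strand. The prom gene encodes Prominin, a protein of the rhabdomere membrane, and its log2 fold change was 3.51 ± 0.16. CG42383 had 3.56, 4.16 and 2.3 CPM before and 54.7, 54.1 and 38.8 CPM after isolation, a 14.7-fold ratio. CG32371, with the synonym EB1, the name of a family of microtubule end-binding proteins, lies in Clk, which encodes a transcription factor of the circadian clock. Its values were 1.25, 3.79 and 0.7 CPM before and 22.1, 26.8 and 19.8 CPM after isolation, and the log2 fold changes were 4.01 ± 0.37 for the member and 2.47 ± 0.14 for Clk.

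The other 4 synonyms, SP91, SP151, SPH198 and SPH206, name serine proteases and serine protease homologs. CG1632 (SPH198) was at 24.5, 34.9 and 31.0 CPM before and at 156, 137 and 126 CPM after isolation. CG30323 (SPH206) lies in Orai, a calcium channel gene, and went from a mean of 2.58 to 11.2 CPM. CG18180 (SP151), opposite to fry, and CG16749 (SP91) were low, at means of 4.84 and 3.86 CPM after isolation, and lost their call under DESeq2. No shared process is read from these names, since they cover 6 members.

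In other genes, CG44195 lies on the strand of Ank2, an ankyrin gene, and was the nested member with the most reads, at 98.6, 108 and 102 CPM before and 494, 473 and 373 CPM after isolation. Its log2 fold change of 2.58 ± 0.16 was below that of Ank2, 2.80 ± 0.22, and its level per kilobase relative to Ank2 was 23.4% before and 20.2% after isolation. CG12672 lies in Sh, the Shaker potassium channel gene, and had 18.6, 20.1 and 11.5 CPM before and 94.1, 89.8 and 59.4 CPM after isolation. CG34141, in the protein kinase gene Pkn, went from 18.3, 19.7 and 19.9 to 193, 203 and 123 CPM, a log2 fold change of 3.63 ± 0.22 where Pkn changed by 1.90 ± 0.15. The member-to-host relation thus differed from case to case.

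Over the 24 members nested on the strand of a host, the level per kilobase had a median of 9.02% of the level of the host before isolation and of 27.9% after it, and was the higher of the 2 after isolation in 22. Over 19 members nested on the opposite strand only, the medians were 5.69 and 14.5%, and 16 were higher after isolation. Of the members with a tested host or overlapping gene, 21 of 23 nested on the same strand and 16 of 18 nested on the opposite strand had a larger log2 fold change than that gene. As the rule sets a lower bound for members and none for hosts, this order was in part fixed by the choice of members.

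Some members overlap or lie in a gene whose log2 fold change was negative or near 0. CG17985 overlaps Rpt1, a proteasome ATPase gene with a log2 fold change of -0.71, on its own strand, but also M7BP on the opposite strand, which went from a mean of 1416 to 11821 CPM. CG17985 itself had 29.6, 28.8 and 25.2 CPM before and 180, 143 and 99.3 CPM after isolation. CG13931 lies opposite to CG7991, which went from a mean of 14.7 to 5.47 CPM, and CG42562 lies in HPS4, at -0.50. CG14448 overlaps jim, at -0.99, and is 807 bp from SPoCk, a calcium pump gene, which went from a mean of 537 to 1587 CPM. CG31642 lies in stai, which encodes the microtubule regulator stathmin and had a log2 fold change of 0.37 ± 0.14, while the member had 7.12, 3.88 and 4.70 CPM before and 34.9, 28.0 and 21.1 CPM after isolation. CG13931 and CG42562 lost their call under DESeq2.

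Several members were neighbours of each other. CG6738, CG17109 and CG6726 follow each other on one strand, opposite to Cow, which encodes a secreted binding protein of Wingless, and all lie inside the span of Cow. Their annotated proteins have 401, 400 and 401 residues, and reads that close copies might share were not examined. Their means went from 6.61 to 44.0 CPM, from 4.65 to 22.2 CPM and from 0.319 to 2.42 CPM, and Cow changed by 1.55 ± 0.16 on the log2 scale. CG33189 and CG33191, 189 bp apart and nested in Pif1A, went from 2.83 to 22.2 CPM and from 2.71 to 17.0 CPM, and CG34301, 475 bp from Pif1A, from 0.617 to 3.59 CPM. CG4465 and CG4770 lie 667 bp apart on opposite strands and went from 0.505 to 8.24 CPM and from 0.464 to 5.07 CPM.

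The post-isolation samples did not contribute evenly. Replicate 3 held the lowest of the 3 post-isolation values in 57 members (69.5%), compared with 21.0% of the other CG genes and 23.1% of all genes tested. The ratio of replicate 3 to the mean of replicates 1 and 2 had a median of 0.766 in the members and of 1.17 in the other CG genes. It ranged from 0.322 in CG10962, with CG12661 at 0.324, to 1.57 in CG13931, and was above 1 in 14 members. The median of the same ratio was 0.795 over the photoreceptor markers and 0.701 over the inner photoreceptor markers, while it was 1.58 over glia, 1.82 over fat body and 1.70 over brain neuron markers. The part of these other cells in the lower values of replicate 3 was not tested.

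With all samples, 235 CG genes and 7.29% of all genes tested were called. With replicate 3 left out of the post-isolation group, all 82 members, 310 CG genes and 9.72% of all genes tested were called. The rule itself would then have chosen 112 genes. In the pairs of post-isolation and pre-isolation samples of one biological replicate, the median log2 ratio, with 0.1 CPM added to both values, was 2.68, 2.80 and 2.29 in replicates 1, 2 and 3. Since every post-isolation CPM of a member was above every pre-isolation CPM, all 82 were higher in all 3 pairs. That arrangement held for 16.4% of all genes tested. At least 4-fold higher in each pair were 44 members, for which no share over other genes is given. Both counts rest on the contrast of the rule and are read no further.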

How the data were processed

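Nuclear RNA after GFP affinity isolation and head RNA before it were sequenced from 3 paired biological replicates of male flies aged 10 days. Per the labels and the methods of the study, single-end reads were trimmed (Trimmomatic), aligned (TopHat) to BDGP6 and counted per gene by strand (HTSeq) with default settings, after base calling with CASAVA 2.18.0.12. The authors deposited raw counts per gene for each sample, and a table of the genes they kept, which holds 5262 genes and 32 members. HTSeq leaves out reads that map to several places or fit more than 1 gene, so genes with a close copy can be undercounted, and this was not checked here.

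From the deposited counts, CPM was computed over gene rows only. Genes over 1 CPM in 3 or more of the samples were fitted in edgeR 4.0.16 (R 4.3.3) with TMM factors and a quasi-likelihood model on group, and tested with glmTreat against a 2-fold change, with Benjamini-Hochberg adjustment over 10378 genes and a false discovery rate of 0.05. The script was tested on simulated data. Each sample's depth was at least 9999540 counts. For a member without pre-isolation reads the floor was 3 reads over the summed pre-isolation counts, or 0.0936 CPM. Pre-isolation and post-isolation samples of a number come from one biological replicate per the labels. The correlations of the deviations of the pairs were 0.015, 0.053 and -0.00099.

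Gene models were taken from the Ensembl annotation of the same assembly, in which 17252 gene identifiers (98.3%) were found. Nested means that the whole span of a gene lies in the span of another. Members named are the 10 highest by post-isolation level and the 10 highest by ratio, those without pre-isolation reads, those at the threshold, those with a RefSeq synonym of known meaning, the highest among those overlapping a gene on their strand, those next to another member, the extremes of the replicate ratio and those that lost a call. Members beyond the rule were named after their values were seen, for the host they lie in or the genes beside them. The members, the marker lists and the tests were chosen with earlier results of these data known. Alternatives were a replicate block, other scaling factors, other filters and DESeq2 1.42.0. Others were a test against no change with a fold above 2, other thresholds of the rule and leaving out each sample. A fit with the older quasi-likelihood method was added after seeing the data. Python 3.11.15 with pandas 2.3.3 and matplotlib 3.10.9 was used for tables and plots. No sequences are shown, because no sequence of these genes was used here.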

Additional observations from a re-analysis of the deposited data

How the results depend on the processing

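No member changed direction under any alternative fit, which the 4-fold rule on the same counts had all but fixed in advance. The 7 alternatives that used all samples and tested all 82 members called 69 (DESeq2) to 82 of them. Over all genes tested, these fits called 4.35 to 13.2% post-enriched. A minimum of 10 counts in every sample left 47 members to test, all called, as were 6.80% of all genes tested in that fit. With library size alone, 133 CG genes were called in place of 235, and the median log2 fold change of the members was 2.62 in place of 3.07. With a test against no change and a fold above 2 required as well, 446 CG genes were called. The replicate block gave 82 members, 230 CG genes and a median of 3.08, and it changed no call of a member. When 1 sample was left out, 72 to 82 members, 182 to 310 CG genes and 5.79 to 9.72% of all genes tested were called. The medians of the members were 2.92 to 3.21, and the rule chose 77 to 112 genes.

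How many genes the rule chose depended on its scale and threshold. It chose 144 with CPM scaled by TMM factors and 41 with the reads not assigned to any gene in the denominator. The number was 132 at 3-fold, 44 at 6-fold and 44 where 4-fold was required within each pair. The share of members overlapping a gene on their strand was 32.9%, and 7.32% when exon had to overlap exon. The comparison of promoter motifs was not run, since no sequence was used here. Every member that lost its call in any of these fits was among the 27 with under 10 CPM after isolation, and the cause was not tested.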
